A study of Sicyos edulis with 9 samples.

Results

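The transcripts of 4 WRKY unigenes, FSG0141310 (TRINITY_DN8546_c0_g2), FSG0220320 (TRINITY_DN6773_c1_g1), FSG0124210 (TRINITY_DN3781_c0_g2) and FSG0039260 (TRINITY_DN10216_c0_g2), were followed in chayote fruits during storage. They were chosen by identifier from the 57814 unigenes that every library reports. All 4 belong to the 10 WRKY unigenes that the study set beside its flavonoid genes, which in turn belong to the 25 WRKY unigenes in its list of differentially expressed transcription factors. A unigene is a gene-level entry assembled from the reads, and the FSG names are those the study gives. No annotation came with the values, so the family of each was taken from the order of the families in the study's list.

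WRKY proteins form a large family of plant transcription factors, named after a short amino acid motif in the domain that binds DNA. They bind a promoter element known as the W box and are best known for roles in defence, wounding and leaf senescence. In several plants, single members have also been linked to the regulation of flavonoid synthesis. No function is known here for any of the 4 unigenes beyond their family.

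Wild-type chayote, a vegetable of the cucurbit family given as Sicyos edulis in the labels, was sampled as fruit at 3 stages. S1 is the optimal harvest stage, S2 is day 15 of storage and S3 is day 30. Each stage had 3 libraries of total fruit RNA, with no treatment other than storage. All 9 libraries came from fruits grown in a single field and kept in plastic containers, and the storage temperature is given as room temperature in the series text and as a set cool temperature in the methods. How many fruits went into a library is not given, and the p values measure only the spread between these libraries. The unigenes carry no annotation, so the fruit label could not be checked against marker genes.

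The values are FPKM, which are scaled to transcript length and library size, so levels can be set side by side between unigenes. Summed over all unigenes, FPKM ranged over 868507 to 886010 in the S1 libraries, 902834 to 914583 in the S2 libraries and 801066 to 832808 in the S3 libraries. Read counts per unigene are not given, and steps of 1 read between low values put the relative depth at 0.73 to 1.29 times that of S1 replicate 2, with S2 replicate 1 the deepest. The limma test on log2(FPKM + 1) covered 30201 unigenes, namely those reaching 1 FPKM in 3 or more libraries, and all 4 WRKY unigenes passed this filter. Calls required an adjusted p (Benjamini-Hochberg) under 0.05. Fold changes below are differences of log2(FPKM + 1), later stage minus earlier, which understate the change of low unigenes. In whole fruit, fewer cells of a type and less RNA per cell cannot be told apart.

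Of the 4 unigenes, FSG0141310 fell in both steps of storage. FSG0220320 and FSG0124210 were not called as changed by S2 and rose steeply by S3. For FSG0124210 the timing was less certain, as S2 replicate 1 already stood well above S1. FSG0039260 had a higher mean in S3 without passing the test. In S1 vs. S2, 1 of the 4 was called lower and 0 higher, where 10.7% and 7.24% of all tested unigenes were called in these directions. At an unadjusted p under 0.05 limma gave the same 1 and 0 in this comparison. In S2 vs. S3, 2 were called higher and 1 lower, beside 23.3% and 23.2% of all tested unigenes. In S1 vs. S3 the counts were again 2 and 1, beside 22.1% and 25.4%. The study describes the 4 as moving the same way in both steps, whereas limma called only FSG0141310 in S1 vs. S2. The 4 had been picked by the study for their movement in these same libraries, so these directions are not independent evidence.

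**Figure D1:**
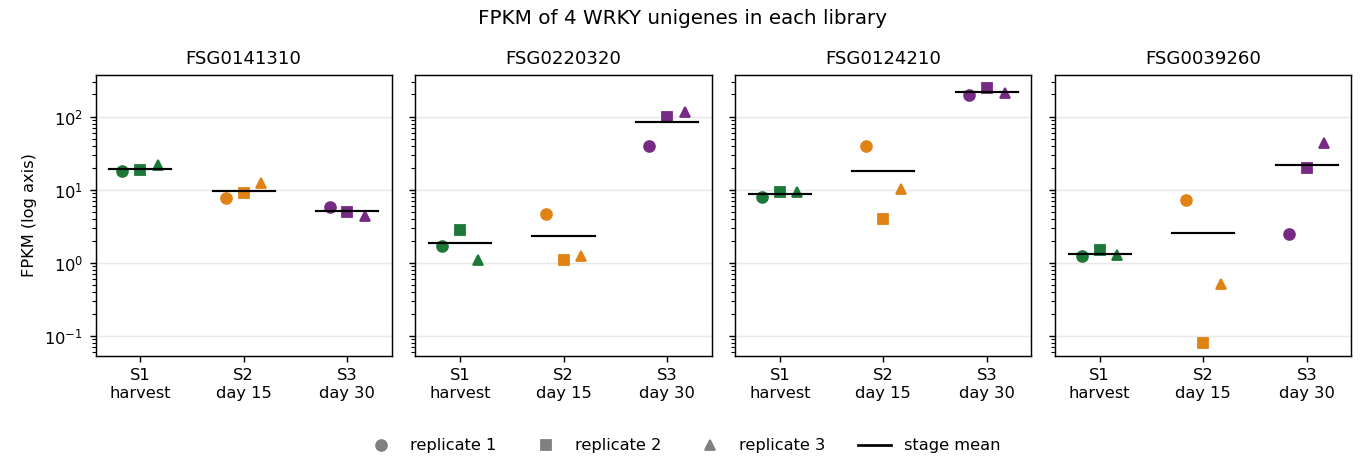
FPKM (log axis) of the 4 WRKY unigenes in each of the 9 libraries, by stage, with a symbol for each replicate and a bar at the stage mean. FSG0141310 steps down from 19.4 to 5.04, FSG0220320 and FSG0124210 stand far higher in the 3 S3 libraries than in S1 and S2, and FSG0039260 scatters widely in S2 and S3.

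FSG0141310 was the unigene that declined. Its FPKM was 17.8, 18.59 and 21.76 in the 3 S1 libraries, 7.68, 8.97 and 12.25 in S2, and 5.82, 4.9 and 4.39 in S3. The 3 stages did not overlap, and every library of a later stage was below every library of an earlier one. The stage means were 19.4 ± 2.10, 9.63 ± 2.36 and 5.04 ± 0.725 (SD, n = 3 each), so that S1 stood 2.01-fold above S2 and S2 stood 1.91-fold above S3. By limma the first step was -0.96 ± 0.18 (SE, adjusted p = 0.0085) and the second -0.80 ± 0.18 (SE, adjusted p = 0.0063). Both steps were thus of like size, and the later step minus the earlier was 0.16, with a 95% interval of -0.55 to 0.87 (limma, adjusted p = 0.74). Over the whole storage period the level fell by 1.76 on the log2 scale (SE 0.18, limma adjusted p = 1.17e-04), a ratio of means of 3.85. These calls were made under each of the 18 alternative settings. FSG0141310 was also the only 1 of the 25 WRKY unigenes called lower in both steps. The study had listed it from these same libraries as the 1 WRKY unigene with this course, so this is not independent evidence. In order of mean level among these 25, it held place 9 in S1, place 14 in S2 and place 21 in S3.

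FSG0220320 was near the lower end of the WRKY unigenes at harvest and among the higher ones after 30 days. Its FPKM was 1.69, 2.79 and 1.1 in S1, 4.59, 1.09 and 1.23 in S2, and 39.32, 99.29 and 113.8 in S3. The S1 and S2 libraries overlapped, and all 3 S3 libraries were far above both. The means were 1.86 ± 0.858, 2.30 ± 1.98 and 84.1 ± 39.5 (SD, n = 3 each), so that S3 stood 36.5-fold above S2 and 45.2-fold above S1. In the first 15 days the difference was 0.09 ± 0.50 (SE, limma adjusted p = 0.93), with a 95% interval of -1.04 to 1.23. From S2 to S3 it rose by 4.71 ± 0.50 (SE, limma adjusted p = 1.39e-04), and only 138 of the 30201 tested unigenes had a larger difference. From S1 to S3 it rose by 4.80 ± 0.50 (SE, limma adjusted p = 1.23e-04), exceeded by 68 unigenes. The later step exceeded the earlier by 4.61 ± 0.86 (SE, limma adjusted p = 0.0046), so the rise lay between days 15 and 30. Its place among the 25 WRKY unigenes went from 19 and 22 in S1 and S2 to 6 in S3.

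FSG0124210 reached the highest level of the 4. Its FPKM was 7.82, 9.22 and 9.19 in S1, 39.47, 3.99 and 10.2 in S2, and 195.44, 248.17 and 207.9 in S3. The S2 libraries lay on both sides of the narrow S1 range, with replicate 1 above it and replicate 2 below it, and the S3 libraries stood apart from both stages. The means were 8.74 ± 0.80, 17.9 ± 19.0 and 217 ± 27.6 (SD, n = 3 each), and S3 was 12.1-fold above S2 and 24.8-fold above S1. The difference was 0.43 ± 0.62 (SE, limma adjusted p = 0.70) from S1 to S2, with a 95% interval of -0.97 to 1.84. It rose by 4.05 ± 0.62 (SE, limma adjusted p = 9.20e-04) from S2 to S3 and by 4.48 ± 0.62 (SE, limma adjusted p = 5.40e-04) from S1 to S3. These SEs come from 1 fit over all 9 libraries, so both include the wide spread of S2. With only the 6 libraries compared the SE was 0.73 from S2 to S3 and 0.14 from S1 to S3. In S3 it ranked at place 2 of the 25 WRKY unigenes and carried 12.5% to 19.4% of their summed FPKM, against 2.08% to 2.49% in S1.

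For FSG0124210 the timing of the rise was less certain than its size. The later step exceeded the earlier by 3.61 ± 1.07 (SE, limma adjusted p = 0.032), and this call was lost on leaving out any of 7 libraries in turn. The adjusted p was 0.0016 without S2 replicate 1, 0.047 without S1 replicate 1, and between 0.051 and 0.11 without each of the others. In S2 replicate 1 the unigene had already gone 45.9% of the way from the S1 mean to the S3 mean on the log2 scale, while S2 replicates 2 and 3 were at -21.5% and 4.56%. The value of the difference between steps was 5.24 without S2 replicate 1 and 2.22 without S2 replicate 2.

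FSG0039260 was the most variable of the 4. Its FPKM was 1.23, 1.5 and 1.27 in S1, 7.17, 0.08 and 0.51 in S2, and 2.45, 19.83 and 43.18 in S3. The S1 libraries were close together and below every S3 library, whereas S3 replicate 1 was below S2 replicate 1. The highest library exceeded the lowest 1.22-fold in S1, 89.6-fold in S2 and 17.6-fold in S3. The S2 ratio has the very low 0.08 FPKM of S2 replicate 2 as its divisor, so its size is imprecise. The means were 1.33 ± 0.146, 2.59 ± 3.98 and 21.8 ± 20.4 (SD, n = 3 each). The difference was 2.63 ± 0.98 (SE, limma adjusted p = 0.056) from S2 to S3, with a 95% interval of 0.38 to 4.88, and 2.66 ± 0.98 (SE, limma adjusted p = 0.054) from S1 to S3. Neither passed the threshold. Without S3 replicate 1 both were called, at 3.68 (adjusted p = 0.0088) and 3.70 (adjusted p = 0.0084), and without S2 replicate 1 they were called at 3.52 (adjusted p = 0.020) and 2.66 (adjusted p = 0.033). From S1 to S2 the difference was 0.02 ± 0.98 (SE, limma adjusted p = 1.0), with a 95% interval of -2.22 to 2.27, so a change of either sign in the first 15 days was not detectable.

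Set side by side, every S3 library was above every S1 library in 3 of the 4 unigenes and below in 1, beside 24.8% and 28.1% of all tested unigenes. Between S2 and S3 the libraries were apart in 2 upward and in 1 downward, beside 29.5% and 30% of all tested unigenes, and between S1 and S2 only FSG0141310 was apart, downward, beside 21.5% of all tested unigenes, and 0 upward, beside 16.8%. By mean level the order was FSG0141310, FSG0124210, FSG0220320 and FSG0039260 in S1, with overlapping libraries for the last pair. In S2 it was FSG0124210, FSG0141310, FSG0039260 and FSG0220320, and of these neighbours only FSG0141310 and FSG0039260 did not overlap. Single S2 libraries kept this order in replicate 1 alone. In replicates 2 and 3, FSG0141310 was above FSG0124210 (8.97 beside 3.99, and 12.25 beside 10.2). There FSG0220320 was also above FSG0039260 (1.09 beside 0.08, and 1.23 beside 0.51). In S3 the order was FSG0124210, FSG0220320, FSG0039260 and FSG0141310. The S3 ranges of FSG0220320 and FSG0039260 overlapped, as FSG0039260 in replicate 3 (43.18) exceeded FSG0220320 in replicate 1 (39.32). Within each S3 library FSG0220320 was the higher, at 39.32, 99.29 and 113.8 beside 2.45, 19.83 and 43.18. The S3 range of FSG0039260 also enclosed that of FSG0141310, which was the higher of the pair in replicate 1 alone.

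**Figure D2:**
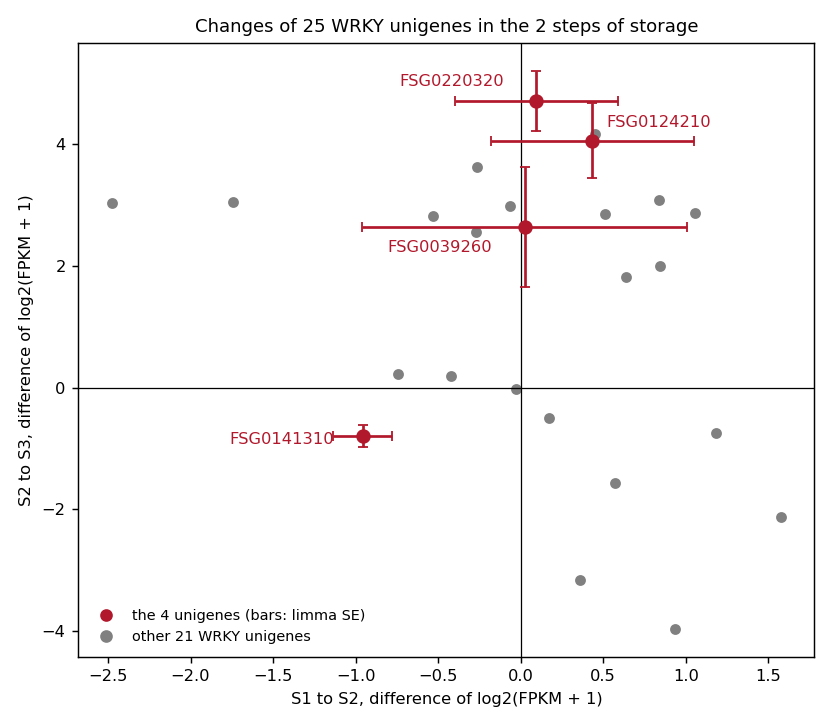
Difference of log2(FPKM + 1) from S1 to S2 (x axis) and from S2 to S3 (y axis) for the 25 WRKY unigenes, with the 4 described in full in red and their limma standard errors as bars. FSG0141310 lies lower left, at -0.96 and -0.80, while FSG0220320 and FSG0124210 lie at the top, near 0 on the x axis within their errors.

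The spread between libraries of a stage followed a common pattern in these unigenes. S2 replicate 1 was farthest along the way from the S1 mean to the S3 mean in 4 of 4 unigenes, also in FSG0141310, where the lowest S2 library is the one farthest along. S3 replicate 1 was the least far along in 4 of 4. Among the 8662 tested unigenes called between S1 and S3 with a log2 difference of at least 1 in size, these libraries held these places in 28.2% and 37.2%. For the 3782 of them that were higher in S3 the shares were 19.8% and 42.0%. For the 4880 that were lower in S3, as FSG0141310 was, the shares were 34.8% and 33.5%. For FSG0141310 the 3 S2 libraries were at 69.8%, 58.4% and 35.1% of the way. The corresponding places were 21.02%, -8.54% and -6.59% for FSG0220320 and 68.1%, -41.8% and -23.6% for FSG0039260. In the 3 unigenes with higher S3 means, S2 replicates 2 and 3 thus lay between -41.8% and 4.56% of the way, below or close to the S1 mean, and replicate 1 lay between 21.02% and 68.1%.

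Expressed as the SD of log2(FPKM + 1) between the libraries of a stage, the spread of the 4 unigenes was widest in S2 or S3. In S1, FSG0124210, FSG0141310 and FSG0039260 had smaller SDs than most tested unigenes, with 18.7%, 23.5% and 12.2% of tested unigenes below them, whereas FSG0220320 had a larger SD than 65.0%. FSG0141310 exceeded 73.7% in S2 and 36.6% in S3. In S2, 99.4% of tested unigenes had a smaller SD than FSG0124210 and 99.5% a smaller SD than FSG0039260. FSG0220320 exceeded 92.7% in S2 and 88.6% in S3, and FSG0039260 exceeded 98.9% in S3, while FSG0124210 was back at 38.1%. The 25 WRKY unigenes had a median SD of 0.182 at S1, 0.596 at S2 and 0.461 at S3. Over all tested unigenes it was 0.297, 0.152 and 0.238, so that S2 was the stage with the largest median spread for the WRKY unigenes and the smallest for all tested unigenes. Restricted to the 16210 tested unigenes with a mean FPKM of at least 5, it was 0.241, 0.104 and 0.195.

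The same libraries stood out across the family. S2 replicate 1 was the highest of the S2 libraries in 21 of the 25 WRKY unigenes (84%), beside 25.1% of all tested unigenes and 20.1% of those called higher in S3 than in S1. S3 replicate 1 was the lowest of the S3 libraries in 19 of 25 (76%), beside 30.6% of all tested unigenes and 36.3% of those called higher. Among the 1257 tested unigenes called higher in S3 than in S1 by a log2 difference of at least 2, S2 replicate 1 was the highest in 21.2% and S3 replicate 1 the lowest in 53.1%, so the latter feature was also frequent among steeply rising unigenes in general. All 9 WRKY unigenes of the shorter list with higher S3 means showed both features. In the 15 WRKY unigenes outside that list, S2 replicate 1 was the highest in 12 and S3 replicate 1 the lowest in 10. The summed FPKM of the 25 unigenes was 363.9, 444.4 and 368.4 in S1, 861.0, 455.9 and 398.1 in S2, and 1008, 1575 and 1663 in S3. S2 replicate 1 thus lay between the other S2 libraries and S3 in this sum. It was also the deepest library, at an estimated 1.29 times the depth of S1 replicate 2. By the mapped reads that the study reports it was the deepest too, by a smaller margin. The part of depth in these values was not tested.

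**Figure D3:**
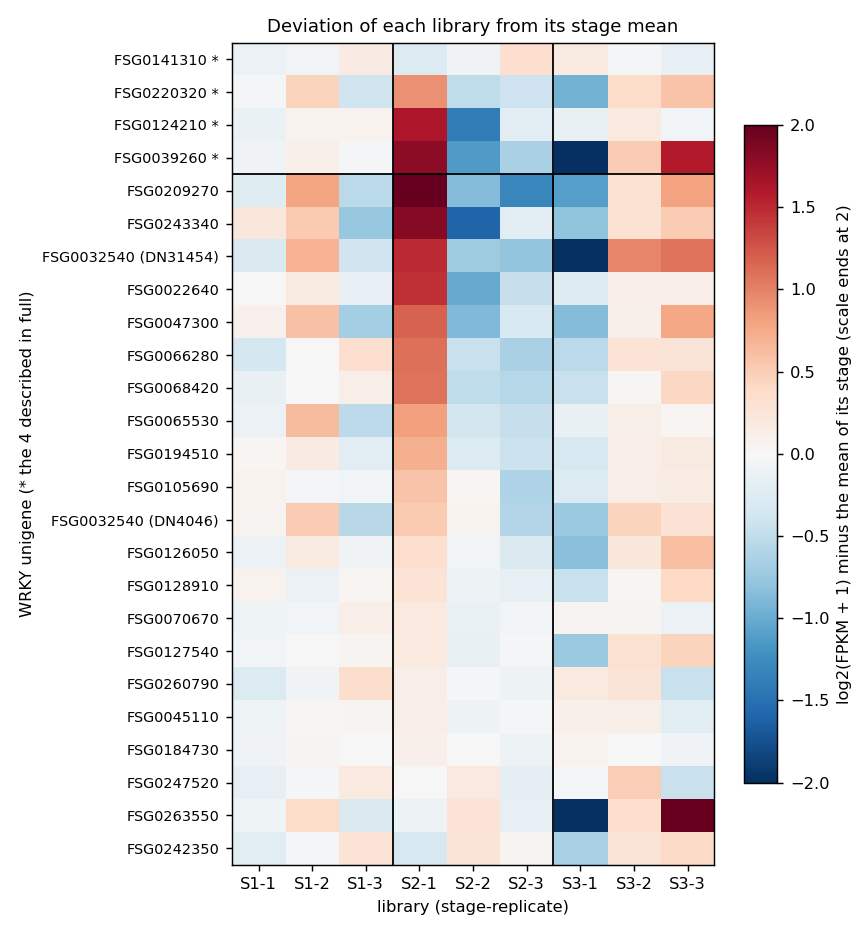
Deviation of log2(FPKM + 1) in each library from the mean of its stage for the 25 WRKY unigenes, with the 4 described in full at the top and marked by an asterisk. S2-1 is red in most rows, being the highest S2 library in 21 of 25 unigenes, and S3-1 is blue in most, being the lowest S3 library in 19 of 25.

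**Figure D4:**
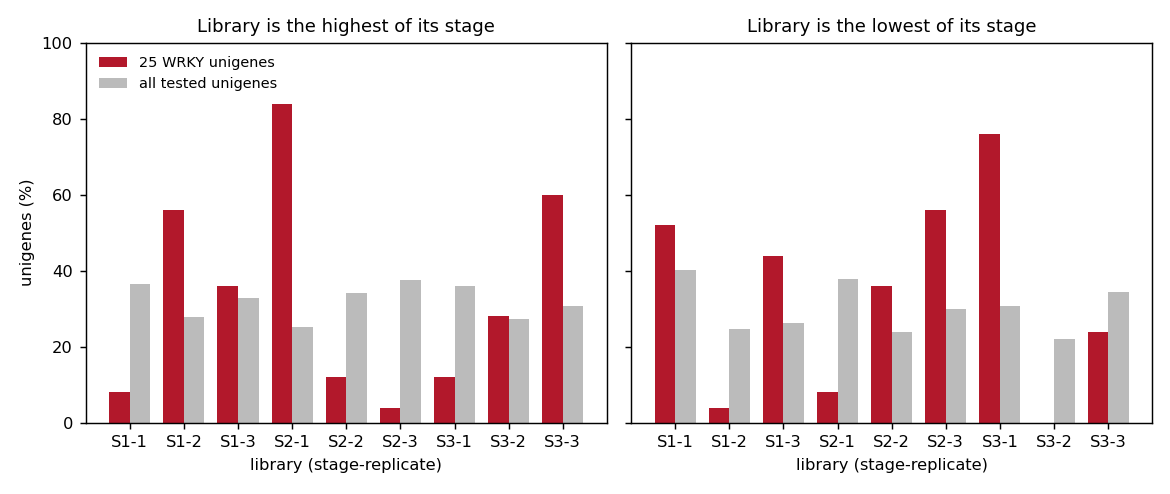
Percent of unigenes in which each library is the highest (left) or the lowest (right) of its stage, for the 25 WRKY unigenes and all 30201 tested unigenes. The WRKY bars stand out for S2-1 among the highest (84%, beside 25.1%) and for S3-1 among the lowest (76%, beside 30.6%).

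The wider family gave a background for these 4 patterns. All 25 WRKY unigenes passed the filter on low values, FSG0128910 only through its S3 libraries. FSG0263550 and TRINITY_DN31454_c0_g1 reached 1 FPKM in some earlier libraries but would not have passed without S3. In S1 vs. S2, 3 of the 25 were called higher and 4 lower, beside 7.24% and 10.7% of all tested unigenes. In S2 vs. S3, 13 were called higher and 6 lower, beside 23.3% and 23.2%, and in S1 vs. S3 the counts were 12 and 5, beside 22.1% and 25.4%. The 13 include FSG0128910 and FSG0263550, and the 12 include FSG0128910 and TRINITY_DN31454_c0_g1. As these passed the filter only with S3, their calls are not independent of it. In S2 vs. S3 and S1 vs. S3 the counts of lower calls were near the share over all tested unigenes. The median difference over the 25 was 0.17, 2.55 and 2.28 in these comparisons, beside -0.03, 0.00 and -0.05 over all tested unigenes. Without S2 replicate 1, limma called 0 of the 25 higher in S1 vs. S2, with 3 at an unadjusted p under 0.05, and without S1 replicate 1, S1 replicate 2 or S2 replicate 2 it called 1. The later step minus the earlier was called positive for 8 and negative for 5 of the 25, beside 17.2% and 15.1% of all tested unigenes, and without S2 replicate 1 for 12 and 3. Since the list was made from unigenes that differed between these stages, these counts do not independently show a direction.

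The most frequent course was the one that FSG0220320 and FSG0124210 took. In total, 11 of the 25 were not called in S1 vs. S2 and then called higher in S2 vs. S3, as were 18.4% of all tested unigenes. FSG0128910 and FSG0263550 are among these 11. They would not have passed the filter on low values without S3, so their course is not independent of the filter. A further 2 were called lower and then higher, beside 3.86% of all tested unigenes, and 3 higher and then lower, beside 4.24%. Another 2 were not called and then lower, beside 16.9%, and 1 lower and then not called, beside 4.74%. In neither step were 5 called, beside 46.7%, and FSG0039260 was among these 5. FSG0141310 alone was lower in both steps, a course that 2.06% of all tested unigenes took. The study had picked it for this course in the same libraries.

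Among the other 6 WRKY unigenes of the shorter list, 5 were called higher in S2 vs. S3 and all 6 in S1 vs. S3, and 0 were called in either direction in S1 vs. S2 by limma. The study describes them as changed in S1 vs. S2 as well, by a comparison whose tool it does not name. Over all tested unigenes the shares called higher were 23.3%, 22.1% and 7.24% in these comparisons, and 10.7% were called lower in S1 vs. S2. FSG0022640 was the most abundant, with mean FPKM of 34.6, 66.1 and 366 in S1, S2 and S3, and rose by 2.85 from S2 to S3 (limma adjusted p = 0.0026). It was the only WRKY unigene with a higher S3 mean than FSG0124210. FSG0209270 had means of 2.87, 7.86 and 98.98 and rose by 4.16 (limma adjusted p = 0.0053), close to the size of the rise of FSG0124210. FSG0105690 had means of 0.89, 2.56 and 27.6 and FSG0068420 of 13.2, 24.6 and 78.6, both called in S2 vs. S3 and in S1 vs. S3. The unigene TRINITY_DN31454_c0_g1, which the study names FSG0032540, had means of 0.507, 2.41 and 13.7 and was called in S1 vs. S3 alone (2.85, limma adjusted p = 0.032). It reached the filter on low values only with its S3 libraries, so this call is not independent of them. The same name stands for a second unigene, TRINITY_DN4046_c0_g1, with means of 80.2, 184 and 110, which was called in no comparison.

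Outside the shorter list, the largest changes ran in other directions as well. FSG0194510 rose from a mean of 6.86 in S2 to 91.2 in S3. FSG0247520 went up from 27.3 to 53.2 and then down to 2.59, and FSG0065530 from 7.78 to 26.0 and then to 4.68, with both steps called. FSG0047300 had means of 22.8 and 33.7 in S1 and S2 and fell to 2.55 in S3. FSG0127540 and FSG0242350 moved the opposite way, from 5.69 to 0.207 and then 9.44, and from 20.8 to 5.56 and then 54.9, with both steps called. FSG0070670, named after its values were seen, had mean FPKM of 44.6, 43.8 and 43.0. None of these fell steadily as FSG0141310 did.

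Reads can be split between unigenes that the assembler placed in a shared component, so the level of a single unigene is uncertain where it has such neighbours. FSG0039260 shares its component with FSG0243340, another WRKY unigene of the shorter list, with FPKM of 1.62, 2.22 and 0.32 in S1, 15.46, 0.53 and 2.96 in S2, and 18.37, 40.71 and 47.1 in S3. In both unigenes S2 replicate 1 was the highest S2 library and S3 replicate 1 the lowest S3 library. FSG0243340 was called higher in S2 vs. S3 (2.87, limma adjusted p = 0.017), where FSG0039260 was not, and the difference between them was not tested. The 3 further unigenes of this component, which the study does not name, did not exceed 4.08 FPKM in any library. Of these, 1 was called higher in S2 vs. S3 (1.49, limma adjusted p = 0.025), though it reached the filter on low values only with its S3 libraries, and the other 2 were too low to be tested.

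The component of FSG0220320 held 2 further unnamed unigenes, which were at 0.16 FPKM or less in all S1 and S2 libraries and reached 2.36 to 2.78 and 5.34 to 6.78 in S3. They passed the filter on low values only through the S3 libraries, so no test is given for them. FSG0124210 had 1 further unigene in its component, with FPKM of 23.76, 1.05 and 3.23 in S1, 4.32, 5.06 and 2.64 in S2 and 7.8, 23.79 and 23.96 in S3. It was not called from S2 to S3 (limma adjusted p = 0.10), and in every S3 library it was far below FSG0124210. The 2 neighbours of FSG0141310 were too low to be tested, with no library above 3.65 FPKM.

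Likeness of course was measured as the root mean square difference between log2(FPKM + 1) profiles over the 9 libraries, each centred on its mean, among 162 unigenes in the study's lists. The nearest to FSG0220320 was the MYB unigene FSG0186350, at 0.545, followed by the MYB unigene FSG0135260 at 0.584 and the WRKY unigene FSG0209270 at 0.598. The same MYB pair was nearest to FSG0124210, at 0.344 and 0.407, followed by the WRKY unigene FSG0022640 at 0.583. FSG0186350 had mean FPKM of 0.433, 1.30 and 26.0 and FSG0135260 of 2.85, 3.11 and 62.1, so both were low until S2 and high in S3. Of all tested unigenes, 1, 10 and 11 were nearer to FSG0220320 than its 3 neighbours, and 0, 1 and 2 were nearer to FSG0124210 than its 3.

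FSG0141310 was nearest to the bHLH unigene FSG0034100, at 0.136, with means of 73.3, 40.1 and 24.3, then to the bHLH unigene FSG0191090 at 0.218 and the Dof unigene FSG0264420 at 0.237. The 3 of them declined in both steps by their means, and 1, 36 and 63 of all tested unigenes were nearer than these. The nearest to FSG0039260 were the WRKY unigene FSG0032540 (TRINITY_DN31454_c0_g1) at 0.516, the bHLH unigene FSG0074880 at 0.664 and the Dof unigene FSG0107630 at 0.696, and 0, 1 and 2 of all tested unigenes were nearer than these.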

How the data were processed

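Total RNA of chayote fruits at S1, S2 and S3 was sequenced in 9 libraries, 3 per stage, grouped by their labels. The authors deposited FPKM per unigene with 2 decimals, from reads filtered with fastp (no version given). Which tools mapped and counted the reads is not given in the sources used here. In 1 file 8 unnamed columns were not used. Stages were compared in R 4.3.3 with limma 3.58.1 (lmFit, eBayes with trend, all 9 libraries in 1 fit) on log2(FPKM + 1), and Python 3.11.15 with numpy 2.4.6, pandas 2.3.3 and matplotlib 3.10.9 gave the other values. The fit was tested on simulated data. The members and lists were chosen with earlier results of these data known. Named unigenes were the 4 members, the other WRKY unigenes of the study's shorter list or of a member's Trinity component, per comparison the 2 largest called rises and falls of the other WRKY unigenes, and the 3 nearest profiles per member. Alternatives were 2 other pseudocounts (0.1 and 0.01), 2 scalings (median of ratios and quantile), no filter, a filter at 5, no trend, the 6 libraries compared, a replicate block and each library left out. Replicate numbers did not pair libraries. The text names no tool for the authors' own comparisons. No sequences are printed, and metabolite and qRT-PCR data were not analysed here.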

Additional observations from a re-analysis of the deposited data

How the results depend on the processing

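Over the alternatives, FSG0141310, FSG0220320 and FSG0124210 kept their direction and call in S1 vs. S3 and S2 vs. S3, and FSG0141310 also in S1 vs. S2. Some of the differences that were not called changed sign. Those of FSG0039260 in S2 vs. S3, in S1 vs. S3 and in the later minus the earlier step stayed positive. From S1 to S2, FSG0220320 ran from -0.36 to 0.35, FSG0124210 from -0.38 to 1.13 and FSG0039260 from -0.87 to 0.59 with a library left out, and FSG0039260 was -0.62 and -0.94 with pseudocounts of 0.1 and 0.01. The later minus the earlier step of FSG0141310 ran from -0.11 to 0.50 with a library left out. FSG0039260 was called with a filter at 5, at 2.63 (limma adjusted p = 0.044) from S2 to S3 and 2.66 (limma adjusted p = 0.043) from S1 to S3, where fewer unigenes are tested. With a library left out it ran from 1.84 to 3.68 and from 1.86 to 3.70, and its adjusted p over all alternatives ran from 0.0088 to 0.17 and from 0.0084 to 0.17. The later minus the earlier step of FSG0124210 was not called with no filter, at 3.61 (limma adjusted p = 0.054), and ran from 2.22 to 5.24 with a library left out, with adjusted p from 0.0016 to 0.11 over all alternatives. The cause was not tested.

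The replicate block left this last difference at 3.61 (limma adjusted p = 0.050), not called. Deviations of libraries with the same replicate number correlated at r = -0.138 to 0.0423 over 9 pairs, and those with other numbers at -0.104 to 0.119, so the numbers mark no pairs. With the block, 2 of the 25 WRKY unigenes were higher in S1 vs. S2, 12 in S2 vs. S3 and 11 in S1 vs. S3.

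With a library left out, the count of WRKY unigenes called higher in S1 vs. S2 ran from 0 to 3 and the count with a negative later minus earlier step from 3 to 5. Over all alternatives 11 to 15 were higher in S2 vs. S3 and in S1 vs. S3. Of the 7 WRKY unigenes called in S1 vs. S2, 6 were called the same way under either scaling, and of the 19 in S2 vs. S3, 18 were under median-of-ratios scaling and 19 under quantile normalization. With 3 libraries per stage and no read counts, the error from counting low values is unknown.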
